A study of Homo sapiens with 43 samples.

Results

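Genes of 10 secreted inflammatory mediators at 4 loci were followed across the H3K27ac and transcription factor maps of a panel of lung squamous cell carcinoma cell lines. The 10 genes are IL8, CXCL1, CXCL2, CXCL3, CXCL5, CXCL6, IL1A, IL1B, IL6 and CCL20. They were described through every deposited peak that touched 1 of 4 hg19 windows, each set by its position. The chemokine window, with IL8 and the 5 CXCL genes, was chr4:74580000-75000000, the window of IL1A and IL1B was chr2:113510000-113615000, the IL6 window was chr7:22745000-22792000, and the CCL20 window was chr2:228658000-228703000. Merging the H3K27ac peaks of the 13 unmodified lines gave 114125 acetylated regions, of which 51 lay in the 4 windows.

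H3K27ac, an acetylation of histone H3 found at active promoters and enhancers, was measured by chromatin immunoprecipitation and sequencing (ChIP-seq). LK2 and NCI-H520 were profiled for H3K27ac with 2 libraries each, and also for Sox2, a factor of stem and squamous progenitor cells, and for Brn2, a POU-domain factor of neural cells. HCC95, KNS62 and HCC2814 had 1 H3K27ac and 1 Sox2 library each, and Calu-1, EBC-1, HARA, HCC2279, HCC2450, LC-1/SQSF, NCI-H2887 and SQ-1 had 1 H3K27ac library each. LK2_DNp63 and LK2_GFP are derivatives of LK2 that the labels name without saying how they were made, whether they are single clones or at what level the introduced gene was expressed. Both had 1 H3K27ac and 1 Sox2 library, and LK2_DNp63 also had a library for p63, the lineage factor of basal and squamous epithelium. All lines grew in RPMI-1640 with fetal bovine serum and no treatment is labelled. The 3 sets of lines therefore say which factors were profiled, and the title of the series asks about a subtype marked by SOX2 and BRN2. The labelled cell type could not be checked against marker genes here, because no gene annotation of the files' build was used.

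IL8 and the CXCL chemokines of this cluster bind the receptor CXCR2 and draw neutrophils into tissue, and IL8 and CXCL6 also act through CXCR1. IL1A and IL1B are alarm cytokines that share the IL1 receptor, IL6 signals through gp130 to STAT3, and CCL20 attracts CCR6-bearing lymphocytes and dendritic cell precursors. Epithelial cells switch these genes on through NF-kB, AP-1 and C/EBP factors at their promoters and distant enhancers, and squamous and airway epithelia are well-known sources of them.

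The promoters of the ligands are printed first, to show which NF-kB, AP-1 and C/EBP forms the genes of the 4 loci hold. All 10 genes matched the RefSeq promoter table of GRCh38.p14, where IL8 is listed as CXCL8, and 1 or 2 genes per locus are shown. Each run gives the 250 bases before the start site, 5′ to 3′ on the gene's strand, and capitals mark matches to the NF-kB form GGNNNTTCC, the AP-1 form TGANTCA and the C/EBP form TTGCNNAA on either strand. On GRCh38.p14 the runs lie at chr4:73740319-73740568 (plus strand) for IL8, chr4:73869143-73869392 (plus) for CXCL1, chr2:112784494-112784743 (minus) for IL1A, chr2:112836780-112837029 (minus) for IL1B, chr7:22726950-22727199 (plus) for IL6 and chr2:227813592-227813841 (plus) for CCL20.
IL8: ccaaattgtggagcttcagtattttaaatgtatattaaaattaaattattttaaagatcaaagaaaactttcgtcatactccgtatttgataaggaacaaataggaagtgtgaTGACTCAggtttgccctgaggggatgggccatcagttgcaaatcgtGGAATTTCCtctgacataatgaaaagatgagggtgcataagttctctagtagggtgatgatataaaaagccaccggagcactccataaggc
CXCL1: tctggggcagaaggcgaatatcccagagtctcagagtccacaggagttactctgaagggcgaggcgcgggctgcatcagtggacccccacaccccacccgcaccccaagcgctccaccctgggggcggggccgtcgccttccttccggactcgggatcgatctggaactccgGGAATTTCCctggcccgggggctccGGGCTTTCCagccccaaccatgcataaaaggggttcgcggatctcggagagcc
IL1A: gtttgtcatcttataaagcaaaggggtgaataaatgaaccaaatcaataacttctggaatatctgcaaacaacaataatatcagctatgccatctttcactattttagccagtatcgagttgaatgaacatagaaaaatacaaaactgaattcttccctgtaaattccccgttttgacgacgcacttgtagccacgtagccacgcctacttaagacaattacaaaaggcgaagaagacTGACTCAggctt
IL1B: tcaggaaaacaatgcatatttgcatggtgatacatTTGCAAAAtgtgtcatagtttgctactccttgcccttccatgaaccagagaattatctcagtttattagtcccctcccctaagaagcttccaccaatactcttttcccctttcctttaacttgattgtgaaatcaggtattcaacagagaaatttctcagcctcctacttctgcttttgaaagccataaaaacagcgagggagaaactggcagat
IL6: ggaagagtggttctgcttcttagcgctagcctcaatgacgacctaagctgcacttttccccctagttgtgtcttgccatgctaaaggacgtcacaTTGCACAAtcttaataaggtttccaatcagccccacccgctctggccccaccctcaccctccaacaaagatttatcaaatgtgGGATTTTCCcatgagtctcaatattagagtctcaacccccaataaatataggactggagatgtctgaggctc
CCL20: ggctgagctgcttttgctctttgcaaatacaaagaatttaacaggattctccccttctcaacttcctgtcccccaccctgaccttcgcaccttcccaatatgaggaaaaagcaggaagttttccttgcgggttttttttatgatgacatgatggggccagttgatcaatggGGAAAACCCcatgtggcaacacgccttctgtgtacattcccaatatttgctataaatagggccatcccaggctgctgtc

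The search covered 300 bases per gene, 250 before and 50 after the start site. The NF-kB form was found in 8 of the 10 promoters, all but those of IL1A and IL1B, and in 20.1% of 35116 RefSeq promoters. Of these 8, 6 lie in the same gene cluster, so they cannot be counted as independent genes. All 6 chemokines of the cluster on chromosome 4 hold the same 9 letters, GGAATTTCC, beginning 77 to 91 bases before the start site, and CXCL1, CXCL2 and CXCL3 hold a second match, GGGCTTTCC, 53 bases before it. The AP-1 form was found in IL8 and in IL1A, where a second match lay after the start site and outside the printed run, against 7.71% of all promoters. The C/EBP form was found in CXCL2, IL1B and IL6, against 10.5% of all promoters. The SOX form ACAATG occurred in CXCL5 and IL1B (10.8% of all promoters), and the POU form ATGCNAAT in IL1B alone of the 10 (2.97% of all promoters). The SOX, POU and C/EBP matches of IL1B began 242, 233 and 215 bases before the start site and did not overlap. A match is a run of letters and was not compared with binding, since the sequence and the peaks are on different builds.

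Each list holds peak positions and a score per peak, the authors' own value, which is used below only as a percentile within its list. For H3K27ac the lists had between 16470 and 43480 peaks, over 24.6 to 73.7 Mb. The 2 LK2 libraries covered 29.1 and 24.6 Mb and the 2 NCI-H520 libraries 48.4 and 51.0 Mb, against 31.6 to 73.7 Mb in the 11 other lines. The lists give no read counts, so depth is unknown, and a shorter covered length cannot be told apart from a library in which less was called. To reduce this, covered lengths were scaled to the same total of 55.3 Mb per library, and the 2 libraries of LK2 and of NCI-H520 were averaged. The labels do not call the 2 libraries of a line separate cultures. The p-values are over lines and cover the spread among single libraries, part of which may be technical.

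Summed over the 4 windows, acetylation was shortest in LK2 and NCI-H520, a ranking that was not tested. In every single window some other line was as short as both or shorter, and no tested window passed the adjusted threshold in the main fit. Over the 4 windows together, scaled H3K27ac length was 4.24 kb in LK2 and 4.21 kb in NCI-H520, against 11.02 kb in NCI-H2887, the lowest of the 11 other lines, and 51.5 kb in HCC2279, the highest. KNS62 came next to HCC2279 with 45.8 kb. LK2 and NCI-H520 had peaks in the chemokine and the IL1 windows and none in the IL6 and CCL20 windows. Among the other lines, 7 had a peak in every window, and HARA, KNS62, HCC2814 and NCI-H2887 each had peaks in 3 of the 4.

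**Figure D1:**
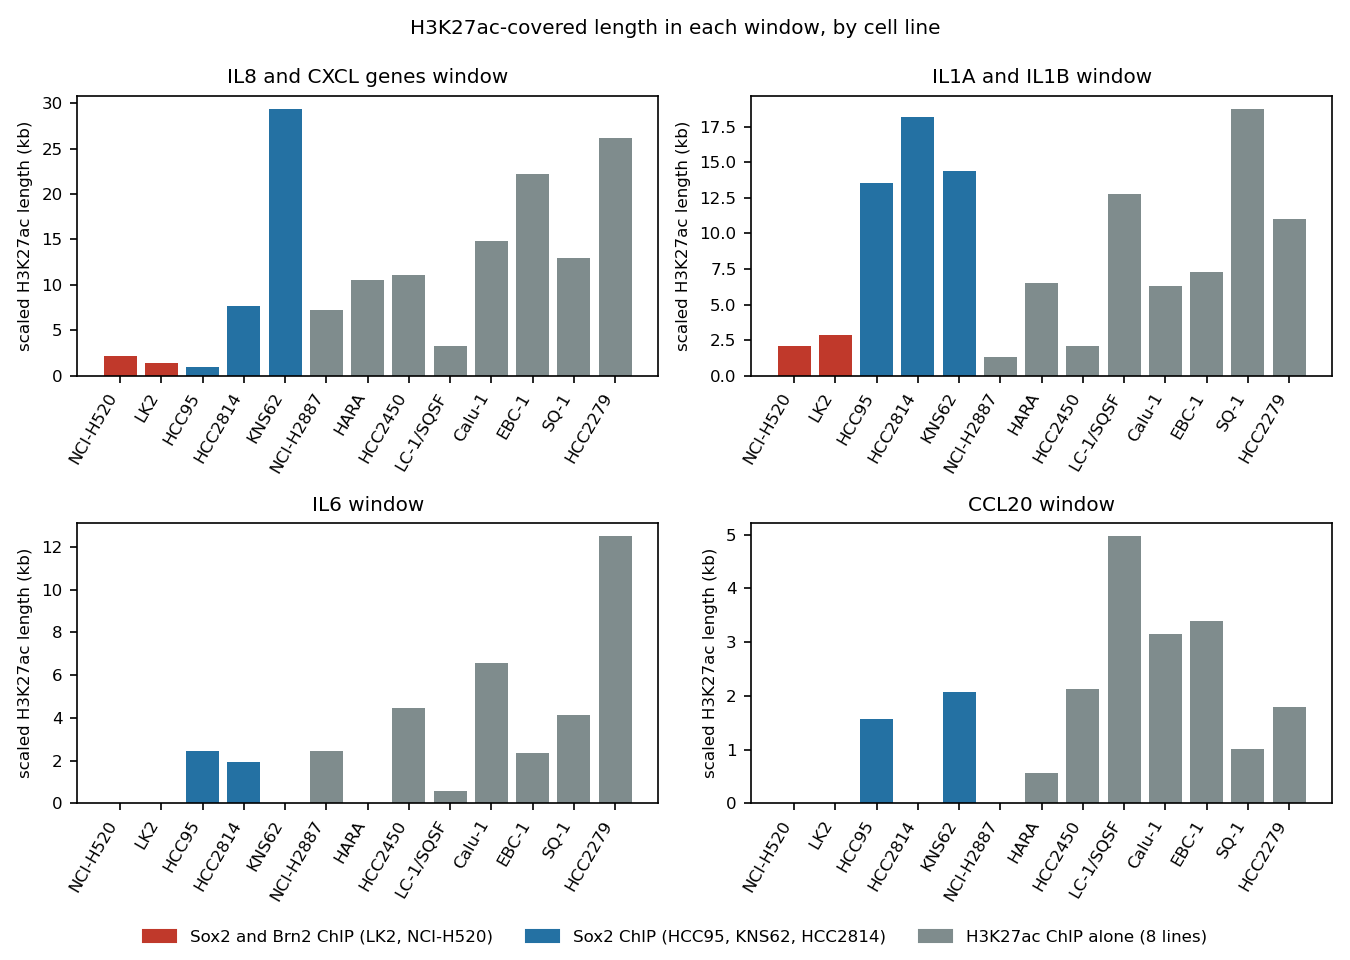
Scaled H3K27ac-covered length in kb (vertical axis) in the 4 windows for each of 13 lines, coloured by the factors profiled; bars for LK2 and NCI-H520 are means of 2 libraries, all others are 1 library. LK2 and NCI-H520 stand at 1.40 and 2.14 kb in the chemokine window and at 0 in the IL6 and CCL20 windows, and HCC95 is lower still in the chemokine window at 0.976 kb.

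In the window of the neutrophil-attracting chemokines, scaled H3K27ac length averaged 1.77 ± 0.527 kb in LK2 and NCI-H520 (SD, n = 2 lines) and 13.3 ± 9.16 kb in the 11 other lines (SD, n = 11). The single libraries of LK2 covered 1469 and 0 bp before scaling and those of NCI-H520 covered 3163 and 616 bp. The scaled values were 1.40 kb in LK2 and 2.14 kb in NCI-H520, against 0.976 kb in HCC95, 29.4 kb in KNS62 and 7.65 kb in HCC2814, and against a range of 3.30 to 26.2 kb with a median of 12.1 kb in the 8 lines with H3K27ac alone. The groups overlapped at HCC95, and each of the other 10 lines was above both LK2 and NCI-H520. On the log2(scaled length + 1000 bp) scale the difference was -2.03 (SE 0.76), and limma's test, adjusted with Benjamini-Hochberg over 4745 genome segments of the same length, gave an adjusted p of 0.107. Of those segments 523 were called, which is 11%, with 278 higher and 245 lower in LK2 and NCI-H520, or 98 higher and 343 lower without scaling to equal totals. The median segment differed by -0.14, and by -0.67 without scaling, and 3.92% of segments had a lower difference than the chemokine window. A two-sided exact permutation test over lines gave an unadjusted p of 0.0385, where 0.0128 was the smallest possible. The window passed the threshold when HCC95, the line of the overlap, was left out (-2.29, adjusted p 0.0284 by limma). It also passed when LK2 replicate 1 was left out (-2.66, adjusted p 0.0354 by limma). With an equal number of top peaks per list it did not pass (-1.86, adjusted p 0.242 by limma), nor without LK2 replicate 2 (-1.70, adjusted p 0.194 by limma).

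Within the chemokine window the mark sat at the 2 ends and in a few stretches between. Of its 32 regions, 16 were held by 1 line, and the number held was 2 in LK2 and 2 in NCI-H520, against 1 in HCC95, 18 in KNS62, 3 in HCC2814 and 3 to 22 in the 8 lines with H3K27ac alone. The most widely held region, at 74902738-74905407 on chromosome 4, had a peak in 12 lines, all but SQ-1. Its peak was 827 bp long in LK2 replicate 1 and 616 bp in NCI-H520 replicate 2, with none in the second library of either line, against 379 to 2589 bp in the other 10 lines that held it. The region at 74963502-74966500 was held by 11 lines, with 642 bp in LK2 replicate 1, none in NCI-H520, and 637 to 2785 bp in the other lines that held it.

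A broad acetylated stretch near the far end was absent from LK2 and NCI-H520. This region, at 74973144-74981093 and 7950 bp long, was held by 9 lines over a median of 5706 bp, with no peak in LK2, NCI-H520, HCC95 or LC-1/SQSF. Its covered length was 6386 bp in KNS62 and 3076 bp in HCC2814, and it reached 7623 bp in Calu-1 and 7546 bp in HCC2279. In SQ-1 its peak stood at the 99.4th percentile of the list by score. Directly beyond it, the region at 74981239-74984401, named here after its values were seen, held a 3163 bp peak of NCI-H520 replicate 1 at the 87.7th percentile, absent from NCI-H520 replicate 2 and from LK2, against 518 to 2116 bp in the 5 other lines that held it. The longest region, at 74729958-74738064, was held by 6 lines, none of them LK2 or NCI-H520. KNS62 with 5848 bp and HARA with 5454 bp filled most of it, and the other 4 covered 498 to 1029 bp. Near the start of the window the region at 74590322-74596815 was held by KNS62 and by 5 lines with H3K27ac alone, over 2599 to 5953 bp. RefSeq on GRCh38.p14 gives the order CXCL8, CXCL6, PF4V1, CXCL1, PF4, PPBP, CXCL5, CXCL3 and CXCL2, with RASSF6 before and MTHFD2L after. No region was assigned to a gene.

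**Figure D2:**
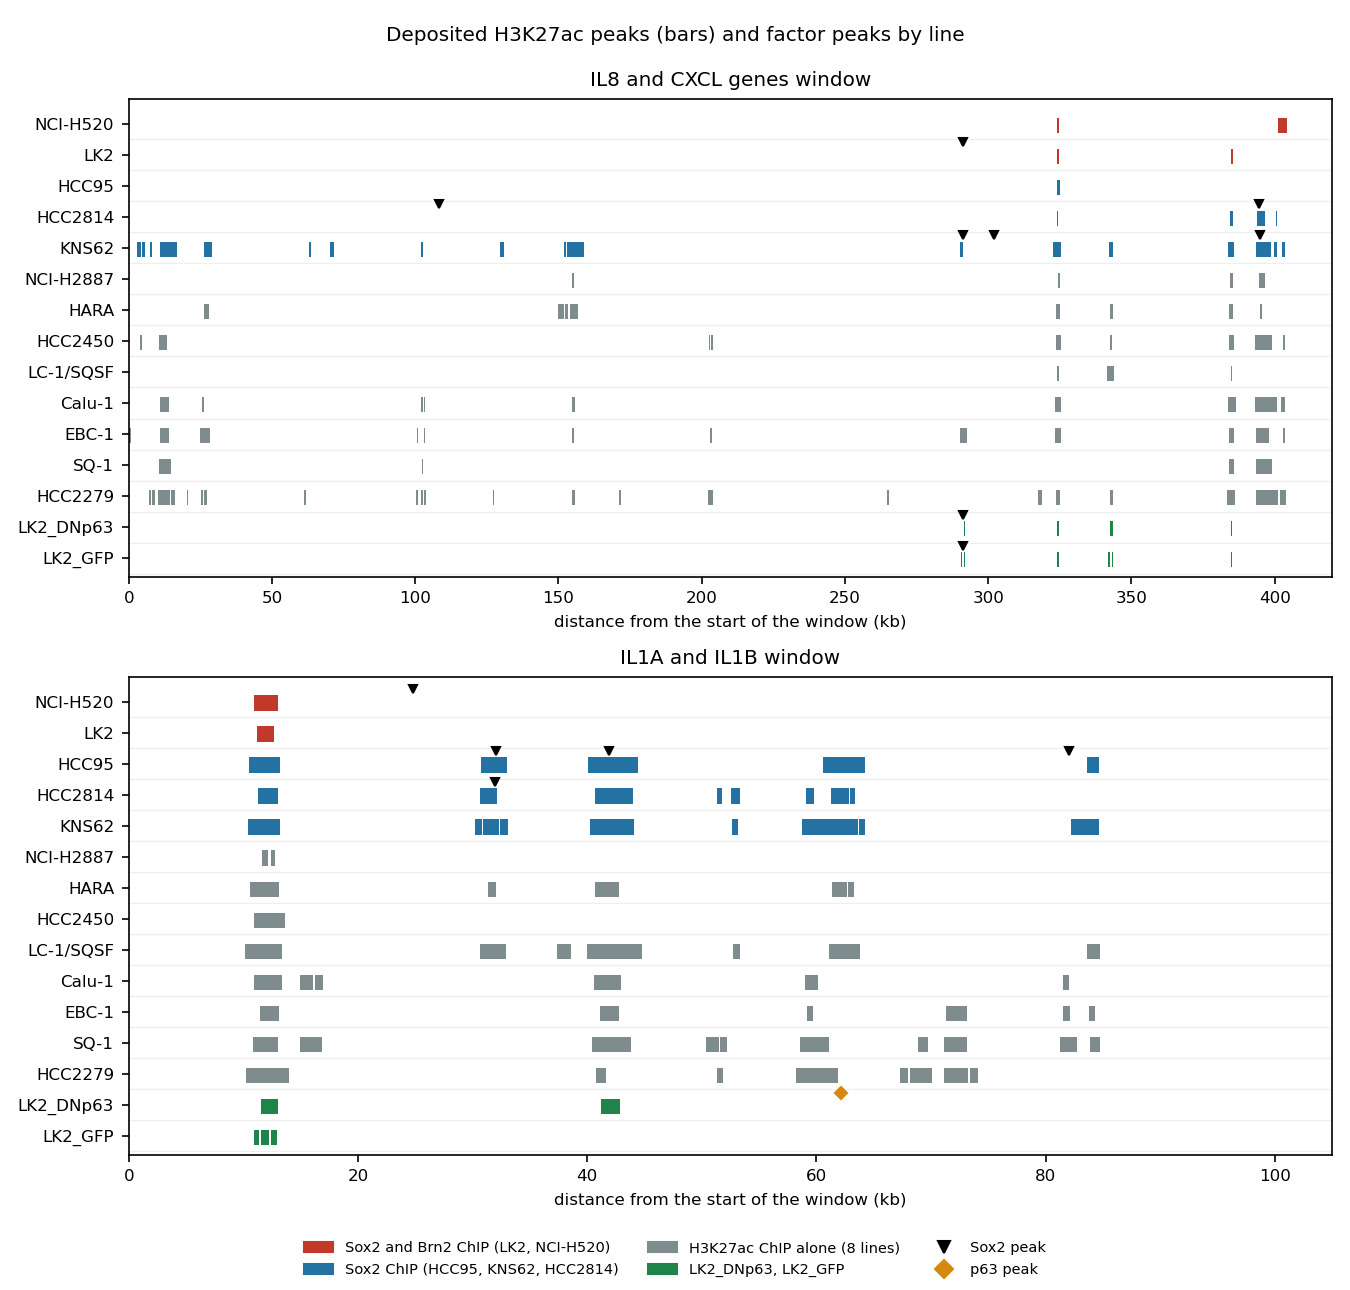
Positions of H3K27ac peaks (bars, to scale) and of Sox2 and p63 peaks (triangles and diamond, at peak centres) in the chemokine window (420 kb) and the IL1A and IL1B window (105 kb), as distance in kb from the window's start, with 1 row per line; the rows of LK2 and NCI-H520 pool 2 H3K27ac libraries. The rows of LK2 and NCI-H520 hold 2 regions each in the upper panel and 1 region each in the lower, the region that all 13 lines share.

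When the genome was divided into 50 kb bins, 1 bin that touches the windows was called, across the start of the chemokine window. Of 16 bins that touched the windows, 8 passed the filter of a mean of 2000 bp, 5 of them with acetylation inside a window. Genome-wide, 1133 of 9554 bins were called, or 11.9%, a share near the 1 of 8 tested here. In the bin 74550001-74600000 on chromosome 4, LK2 and NCI-H520 had no peak, against scaled lengths of 6063 bp in HCC95, 15756 bp in KNS62 and 6491 bp in HCC2814 and 1617 to 12523 bp in the 8 lines with H3K27ac alone. The difference was -3.03 (SE 0.53, adjusted p 0.00207 by limma), and 30.4% of the bin's acetylated length lay inside the window, the rest before its start. In the part inside the window HCC95, HARA, HCC2814, LC-1/SQSF and NCI-H2887 also had no peak, so their lengths came from before its start. The call therefore rests largely on sequence outside the window. The call was lost with an equal number of top peaks per list (-2.74, adjusted p 0.0512) and without NCI-H520 (adjusted p 0.0584). At the far end of the window, the bin 74950001-75000000 differed by -1.32 (SE 0.80, adjusted p 0.307 by limma).

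The interleukin-1 window, home of the alarm cytokines IL1A and IL1B, was covered over 2.45 ± 0.548 kb in LK2 and NCI-H520 (SD, n = 2 lines) and over 10.2 ± 5.95 kb in the 11 other lines (SD, n = 11). Before scaling, LK2 covered 1306 and 1426 bp and NCI-H520 1607 and 2116 bp. The scaled values were 2.84 kb in LK2 and 2.07 kb in NCI-H520, against 13.5 kb in HCC95, 14.4 kb in KNS62, 18.2 kb in HCC2814 and 1.35 to 18.7 kb with a median of 6.92 kb in the 8 lines with H3K27ac alone. HCC2450 with 2.06 kb and NCI-H2887 with 1.35 kb lay below both LK2 and NCI-H520, so the groups overlapped. The difference was -1.44 (SE 0.61, adjusted p 0.157 by limma over 8792 segments, of which 973 or 11.1% were called), and 14.02% of segments had a lower difference. The two-sided exact permutation p was 0.0897.

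All of the acetylation of LK2 and NCI-H520 in this window came from 1 region, at 113520126-113523992 on chromosome 2, which every line and every library held. RefSeq on GRCh38.p14 lists CKAP2L, IL1A, IL1B and IL37 in this order of coordinates, and no region was assigned to a gene. The region at 113549977-113554774 was held by 9 lines over 811 to 4798 bp and the region at 113568204-113574265 by the same 9 lines over 533 to 5382 bp. The 4 lines without either were LK2, NCI-H520, HCC2450 and NCI-H2887. In both regions HCC95, KNS62 and HCC2814 had peaks, with 4426, 3810 and 3325 bp in the first and 3688, 5382 and 2677 bp in the second. A further region at 113591286-113594745 was held by 6 lines over 566 to 2449 bp. The 50 kb bin 113550001-113600000 read 0 bp in LK2 and NCI-H520 and differed by -2.51 (SE 0.83, adjusted p 0.0679 by limma). It passed the threshold without HCC2450 (adjusted p 0.0222) or without NCI-H2887 (adjusted p 0.0223), the only other lines at 0 in that bin. With an equal number of top peaks per list the bin differed by -1.91 (adjusted p 0.199 by limma). The neighbouring bin, which holds the region common to all lines, differed by -0.35 (SE 0.34, adjusted p 0.534 by limma).

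HCC95, KNS62 and HCC2814 were set against the 8 lines with H3K27ac alone in the same fit. In the IL1 window they averaged 15.4 ± 2.47 kb (SD, n = 3), against 8.26 ± 5.76 kb (SD, n = 8). The difference was 1.10 (SE 0.54, adjusted p 0.441 by limma), larger than that of 92.3% of segments, and the two-sided exact permutation p was 0.109. SQ-1 among the 8 lines, at 18.7 kb, was above all of HCC95, KNS62 and HCC2814, and LC-1/SQSF, at 12.8 kb, was just below them. In this comparison limma called 0 of 4745, 0 of 8792 and 0 of 9571 segments of the 3 window lengths tested, 0% in each, with 520, 1027 and 1146 at an unadjusted p under 0.05, and 0 of 9554 bins of 50 kb with 1147 at that unadjusted level.

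HCC95, KNS62 and HCC2814 averaged 12.7 ± 14.8 kb in the chemokine window, against 13.6 ± 7.53 kb in the 8 lines with H3K27ac alone (SD, n = 3 and 8). The difference was -0.66 (SE 0.67, adjusted p 0.726 by limma; exact permutation p 0.436). Without HCC95 it was 0.35 (adjusted p 0.930), so its sign rested on that line, which had 1 chemokine peak and 5 IL1 peaks. Without KNS62 it was -1.62 (adjusted p 0.463), so its size rested on both lines.

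The IL6 window held 1 merged region, at 22755593-22771753 on chromosome 7, 16161 bp long. No peak was listed in LK2, NCI-H520, KNS62 or HARA, and 9 lines held it. Scaled length was 0 in LK2 and in NCI-H520, against 2.42 kb in HCC95, 0 in KNS62, 1.92 kb in HCC2814 and 0 to 12.5 kb with a median of 3.29 kb in the 8 lines with H3K27ac alone. HCC2279 stood apart, since a single peak of 16106 bp, at the 98.9th percentile of its list, spanned the region. Calu-1 split the same stretch into 4 peaks over 8659 bp, HCC2450 into 3 peaks over 5947 bp and SQ-1 into 3 peaks over 3761 bp, whereas LC-1/SQSF had 1 peak of 723 bp at the 2.30th percentile.

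LK2 and NCI-H520 differed from the 11 other lines at IL6 by -1.73 (SE 0.77, adjusted p 0.170 by limma over 9571 segments, of which 1138 or 11.9% were called). The exact permutation p was 0.115, and 10.2% of segments had a lower difference. HCC95, KNS62 and HCC2814 averaged 1.45 ± 1.28 kb, against 4.13 ± 3.99 kb in the 8 lines with H3K27ac alone (SD, n = 3 and 8), a difference of -0.85 (SE 0.68, adjusted p 0.630 by limma; exact permutation p 0.315). Without KNS62, which listed no IL6 peak, it was -0.30 (adjusted p 0.886).

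**Figure D3:**
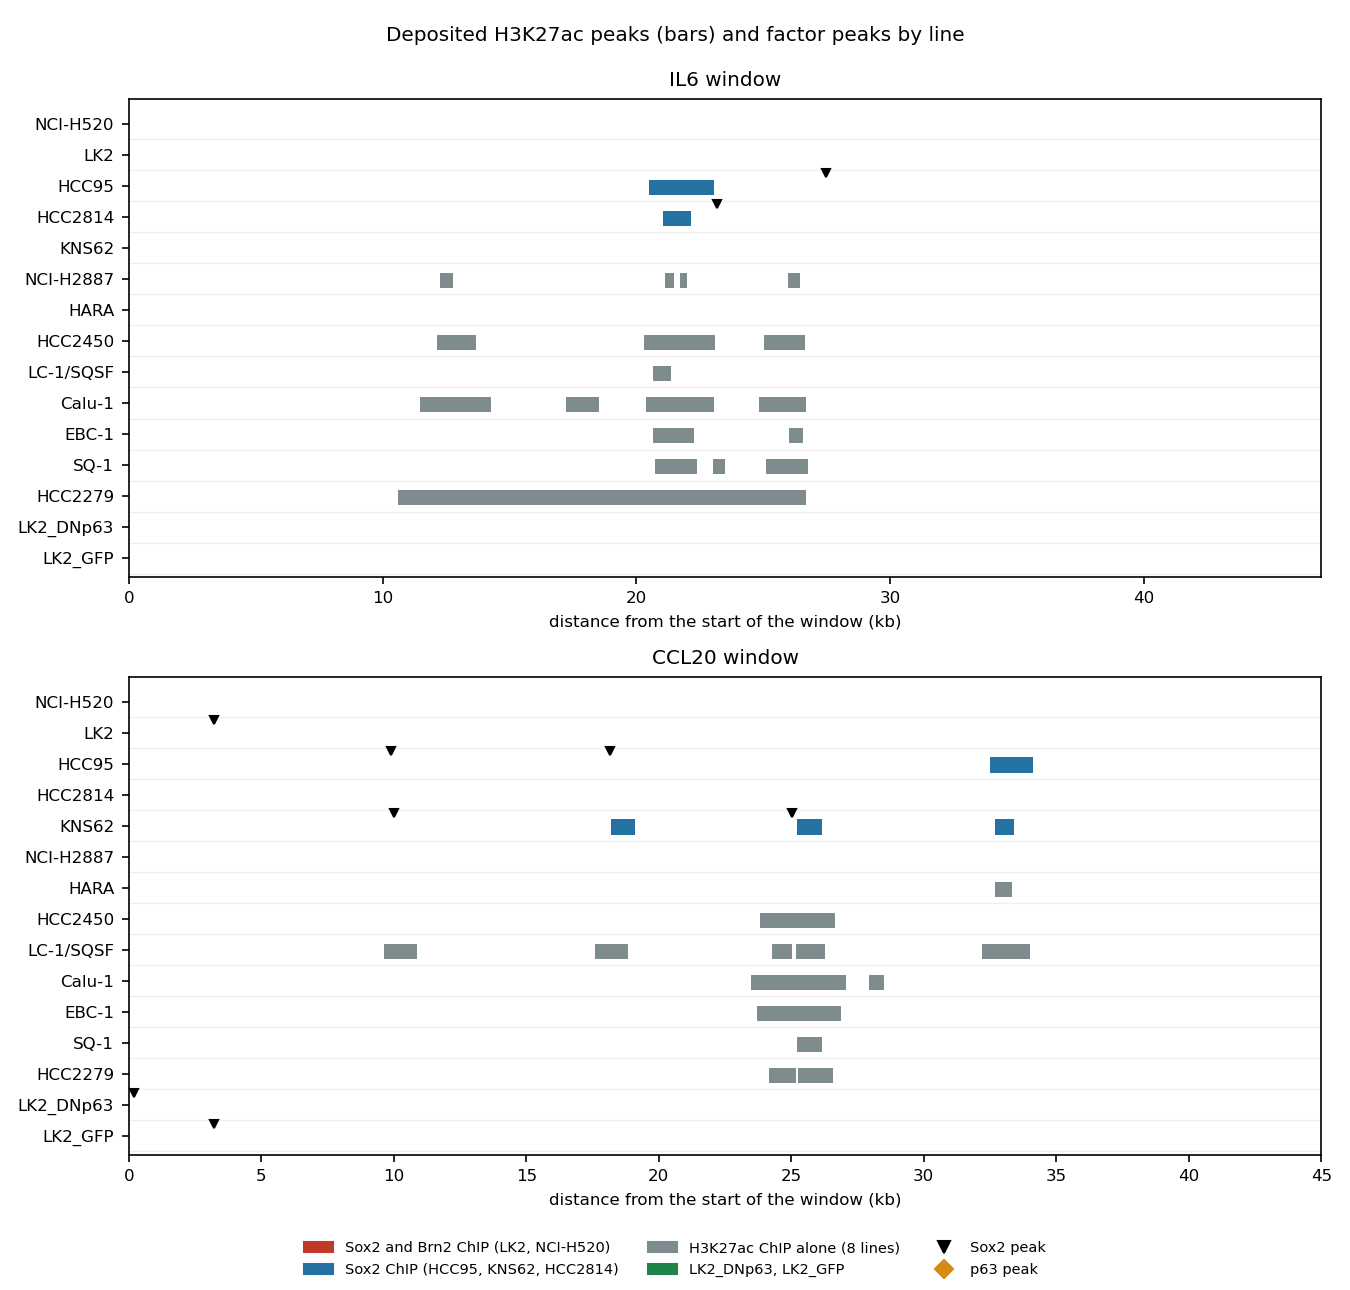
Positions of H3K27ac peaks (bars, to scale) and of Sox2 peaks (triangles, at peak centres) in the IL6 window (47 kb) and the CCL20 window (45 kb), as distance in kb from the window's start, with 1 row per line. The 16106 bp peak of HCC2279 spans the stretch that other lines cover in pieces, and the rows of LK2, NCI-H520, LK2_DNp63 and LK2_GFP hold no H3K27ac peak in either panel.

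CCL20, the CCR6 ligand, lies in the shortest of the 4 windows, 45 kb. Scaled length was 0 in LK2 and in NCI-H520, against 1.56 kb in HCC95, 2.08 kb in KNS62, 0 in HCC2814 and 0 to 4.97 kb with a median of 1.95 kb in the 8 lines with H3K27ac alone. The window averaged less than the filter of 2000 bp and was not in the test. Its difference was -1.32 between LK2 and NCI-H520 and the 11 other lines and -0.45 between HCC95, KNS62 and HCC2814 and the 8 lines, with exact permutation p values of 0.103 and 0.448. Without the filter the adjusted p values by limma were 0.234 and 0.820. Of its 5 regions, that at 228681475-228685060 on chromosome 2 was held by 7 lines over 920 to 3586 bp, longest in Calu-1 and at the 90.9th percentile in EBC-1. That at 228690179-228692128 was held by HCC95, KNS62, HARA and LC-1/SQSF, of which HCC95 and HARA had no peak in the first. LC-1/SQSF had the longest total, in 5 peaks.

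**Figure D4:**
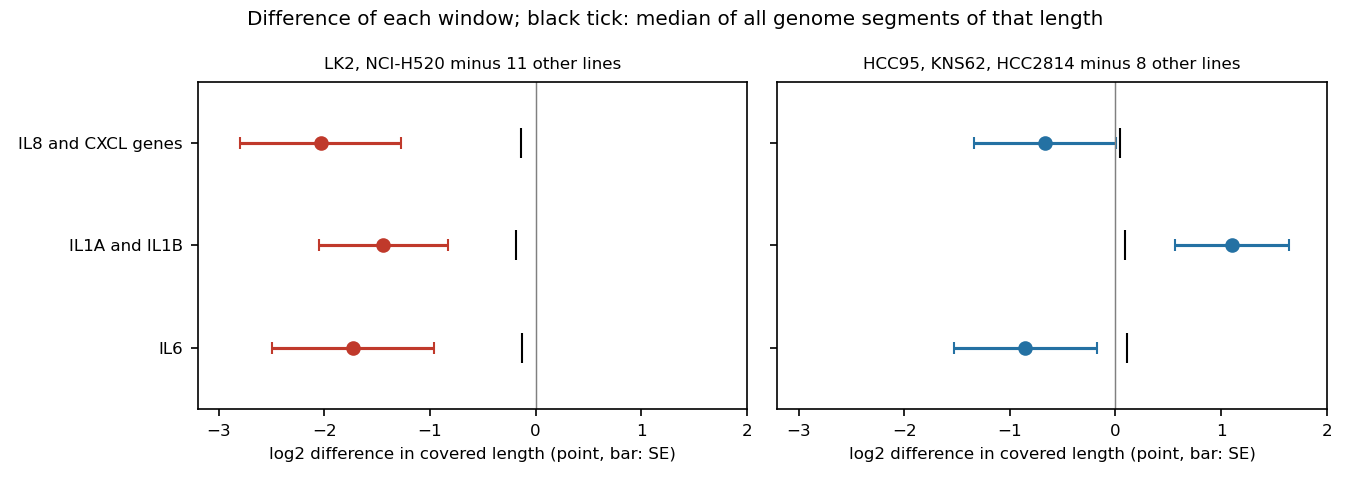
Log2 difference in scaled covered length of the chemokine, IL1 and IL6 windows (points, with bars of 1 SE) for LK2 and NCI-H520 minus the 11 other lines (left) and for HCC95, KNS62 and HCC2814 minus the 8 lines with H3K27ac alone (right), with the median of all genome segments of that length as a black tick. All 3 points on the left lie below the tick, at -2.03, -1.44 and -1.73, and on the right the IL1 window alone lies above it, at 1.10.

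Few of the regions were shared with LK2 and NCI-H520. They held 4 of the 51 regions, or 7.84%, whereas over the genome at least 1 of these lines held 36127 of 114125 regions, or 31.7%. The 4 regions are 3 of the chemokine window and the common region of the IL1 window, all described above, and only the last had a peak in both libraries of a line. Regions held by a single line made up 21 of the 51, or 41.2%, against 50.7% over the genome. Regions held by 7 or more lines made up 8 of the 51, or 15.7%, against 15.9%, and the region common to all lines was 1.96% of the 51, against 6.64%. The regions with at least 2 lines that only lines with H3K27ac alone held numbered 7, at 74680240-74680987, 74682908-74683681, 74782108-74782941 and 74782946-74784056 in the chemokine window and at 113524902-113526943, 113578158-113580108 and 113581149-113583242 in the IL1 window. They were 23.3% of the 30 regions in the windows with at least 2 lines, against 24.97% of 56295 such regions over the genome, a share near that of the genome. No such region in the windows belonged only to LK2 and NCI-H520, against 3.73% over the genome, or only to HCC95, KNS62 and HCC2814, against 1.95%. Sizes of the sets differ, and regions of 1 gene cluster are not independent of each other.

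Brn2 had no peak in any of the 4 windows, in LK2 or in NCI-H520. Its lists were short, with 4819 and 1298 peaks used, and came from a different chromatin preparation than the others. For factor peaks, here and below, segment shares are over genome segments of the same length with H3K27ac in any library, not over the whole genome. The share of these with at least 1 Brn2 peak was 39.4% in LK2 and 15.6% in NCI-H520 for the chemokine window. It was 14.6% and 4.81% for the IL1 window, 8.53% and 2.57% for IL6 and 8.27% and 2.48% for CCL20. An empty window was the more common outcome among such segments at every length.

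Sox2 had 18 peaks in the 4 windows over its 5 unmodified lines. LK2 and NCI-H520 had 3 of them, none on H3K27ac of the same line, and HCC95, KNS62 and HCC2814 had 15, of which 7 lay on H3K27ac of the same line and 5 did when 50% of the shorter peak had to be covered. Over the genome 39.5% of Sox2 peaks in LK2 and 60.9% in NCI-H520 lay on the line's own H3K27ac, against 56.1% in HCC95, 60.6% in KNS62 and 38.3% in HCC2814. The 3 peaks of LK2 and NCI-H520 are too few to set against these shares, and both lines had little H3K27ac in the windows.

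In the IL1 window Sox2 had 1 peak in NCI-H520 and none in LK2, against 3 in HCC95, 1 in HCC2814 and none in KNS62. Of segments of that length, 33.2% had as many or more in NCI-H520, against 5.80% in HCC95 and 22.9% in HCC2814. The Sox2 peaks of HCC95 at 113541721-113542353 and of HCC2814 at 113541793-113542156 overlapped, stood at the 82.9th and 79.6th percentiles of their lists, and lay on the acetylated region 113540237-113543099, which HCC95, KNS62, HCC2814, HARA and LC-1/SQSF held. The other peaks of HCC95 were at 113551775-113552032, on the line's own H3K27ac and at the 7.58th percentile, and at 113591917-113592254, off its H3K27ac at the 37.2nd. The peak of NCI-H520 at 113534582-113535004 stood at the 2.95th percentile and touched no acetylated region.

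In the chemokine window Sox2 had 1 peak in LK2 and none in NCI-H520, against 3 in KNS62, 2 in HCC2814 and none in HCC95. Of segments of that length, 56.1% had as many or more in LK2, against 18.5% in KNS62 and 27.1% in HCC2814. The strongest, at 74870855-74871683 in KNS62, was at the 96.1st percentile of its list and overlapped the Sox2 peak of LK2 at 74870907-74871540, which was at the 16.8th. LK2_DNp63 at the 30.5th percentile and LK2_GFP at the 66.0th percentile had a Sox2 peak at the same place. H3K27ac of the region 74870087-74872670 around it covered 437 bp in LK2_DNp63 and 755 bp in LK2_GFP, whose Sox2 peaks there touched it. The mark was not listed there in either LK2 library and covered 846 bp in KNS62 and 2584 bp in EBC-1. The second peak of KNS62, at the 70.1st percentile, was off H3K27ac. On the broad region 74973144-74981093 the Sox2 peaks of KNS62 and HCC2814 lay near each other without overlapping, at the 26.96th and 35.3rd percentiles, both on the line's own H3K27ac.

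At IL6 the Sox2 peaks were weak by score, 1 in HCC95 at 22772319-22772654 (5.37th percentile) and 1 in HCC2814 at 22768022-22768350 (14.4th percentile), both off the line's own H3K27ac. Of segments of that length, 23.9% had at least 1 in HCC95 and 14.2% in HCC2814. At CCL20 Sox2 had 1 peak in LK2 and none in NCI-H520, against 2 in HCC95, 2 in KNS62 and none in HCC2814. Of segments of this length, 13.9% had as many or more in LK2, against 6.14% in HCC95 and 3.07% in KNS62. The peaks of HCC95 at 228667602-228668197 and KNS62 at 228667697-228668355 overlapped, at the 62.9th and 62.2nd percentiles, and lay where of the 13 lines LC-1/SQSF alone had H3K27ac. HCC95 had a second at 228675866-228676436 (75.1st percentile) and KNS62 a second at 228682760-228683287 (25.8th percentile), which lay on H3K27ac of KNS62. The LK2 peak at 228660909-228661553 (49.4th percentile) overlapped one of LK2_GFP and no acetylated region.

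LK2_DNp63 was set beside LK2_GFP with 1 library per arm and so no test. The name DNp63 usually stands for the isoform that basal cells make. The IL1 window had 4.78 scaled kb of H3K27ac in LK2_DNp63 and 2.65 kb in LK2_GFP, a log2 difference of 0.66. The difference lay in the region 113549977-113554774, where LK2_DNp63 had a peak of 1679 bp at 113551190-113552868 (66.2nd percentile) and neither LK2_GFP nor either LK2 library had any. This is 1 of the stretches that 9 of the 13 lines acetylate and LK2 does not. The common region of the window read 1484 bp in LK2_DNp63 and 1619 bp in LK2_GFP. With LK2 replicate 2 in place of LK2_GFP the log2 difference was 0.46. In segments of this length 747 of 8047, or 9.28%, differed by 2-fold or more between LK2_DNp63 and LK2_GFP, which the IL1 window did not.

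The p63 list of LK2_DNp63 had 1 peak in the 4 windows, at 113571859-113572511 in the IL1 window (77.7th percentile of 3159 peaks used), and 11.9% of segments of that length had at least 1. It lay inside the merged region 113568204-113574265, of which 9 of the 13 lines acetylate some part. At the p63 peak itself only HCC95, HARA, KNS62, HCC2814 and LC-1/SQSF had H3K27ac. The peaks of SQ-1, Calu-1, EBC-1 and HCC2279 in the region ended before it. That of HCC2279 ended 61.848 kb from the window's start, almost at the start of the p63 peak, 61.858 kb from it. LK2_DNp63 had no H3K27ac peak in the region, and the p63 peak did not overlap its H3K27ac peak of the neighbouring region. The chemokine window had 3.91 scaled kb of H3K27ac in LK2_DNp63 and 5.03 kb in LK2_GFP, a log2 difference of -0.30, which was 0.37 with LK2 replicate 1 in place of LK2_GFP. LK2 replicate 2 listed no peak in that window, against the 3.91 kb of LK2_DNp63, so its level was also below that of LK2_DNp63. In segments of this length 400 of 4514, or 8.86%, differed by 2-fold or more. Both derivatives had peaks in the same 4 regions of the chemokine window, which include 74921362-74923992, absent from both LK2 libraries, with 1162 bp in LK2_DNp63 and 969 bp in LK2_GFP. Sox2 had 2 peaks in LK2_DNp63 and 2 in LK2_GFP over the 4 windows, 1 each in the chemokine and CCL20 windows. The Sox2 lists held 4217 peaks in LK2_DNp63 and 12034 in LK2_GFP. Their peaks at CCL20 did not overlap. That of LK2_DNp63 lay across the window's start at 228657720-228658670 (2.50th percentile), and that of LK2_GFP at 228660691-228661762 (56.6th percentile). Neither derivative had an H3K27ac peak in the IL6 or the CCL20 window.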

How the data were processed

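ChIP-seq peak lists were deposited for 27 of 43 samples (17 H3K27ac, 7 Sox2, 2 Brn2, 1 p63); 16 inputs were not analysed here. The deposited score of each peak is the authors' value, and no header states its scale. Peak names begin with MACS; for its version, its threshold and how inputs entered it, the answer is not given in the sources used here. Reads were aligned with Bowtie2 to hg19, per the submitters' processing notes. Chromatin for H3K27ac, Sox2 and p63 was fixed with formaldehyde and sonicated, and that for Brn2 was also fixed with disuccinimidyl glutarate and digested with micrococcal nuclease, per the labels' protocols. Peaks on chromosomes 1 to 22 and X were kept (2092 of 652792 were left out). Codes in the sample descriptions that may mark runs were shared by too few libraries to compare within a run.

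The genome was divided into segments of each window's length, on a grid holding the window as 1 segment. Covered length per segment was scaled to an equal library total, averaged over the 2 libraries of LK2 and of NCI-H520, and log2(length + 1000 bp) was fitted with limma 3.58.1 (R 4.3.3) in 1 model of the 3 sets of lines, with a mean-variance trend, over segments with a mean of at least 2000 bp. A log2 difference on this scale understates the change of short lengths. Benjamini-Hochberg adjustment ran over all segments, and an adjusted p under 0.05 was a call. Bins of 50 kb were fitted likewise. Exact permutation tests over lines were two-sided and unadjusted, 8 in all. A region was held by a line with a peak in either library, and peaks were shared at an overlap of 1 bp. Coordinates are 1-based on hg19 unless GRCh38.p14 is named.

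All 10 genes are named; regions were named where most lines held them, where longest in a window, where only lines of 1 set held them or where factor peaks lay. The genes, windows and lists were chosen with earlier results of these data known. Related pathway genes, cell type markers and start-site measurements on hg19 needed an annotation of that build, which was not used here. Alternatives were other pseudocounts (200 and 5000 bp), no filter, no scaling, equal numbers of top peaks (16470 for H3K27ac, 4217 for Sox2), fits of the contrasted lines alone, stricter overlap, and leaving out each line or library.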

Additional observations from a re-analysis of the deposited data

How the results depend on the processing

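Covered lengths of the chemokine, IL1 and IL6 windows were lower in LK2 and NCI-H520 than in the 11 other lines under every alternative counted, over -2.66 to -1.26 (24 alternatives, p 0.0284 to 0.406), -1.88 to -0.91 (24, p 0.0528 to 0.517) and -3.32 to -0.65 (24, p 0.0774 to 0.504) on the log2 scale, with p adjusted except in the permutation tests. Only the chemokine window passed 0.05, in 3 of them (-2.03 with the exact permutation test; with 1 library or line left out the range was -2.66 to -1.70). HCC95, KNS62 and HCC2814 against the 8 lines ranged from -1.62 to 0.35, 0.73 to 1.48 and -1.30 to -0.30, none past 0.05. The sign at the chemokine window was reversed without HCC95 (0.35); the cause was not tested. Leaving out the IL1 region common to all lines, an alternative chosen after seeing the data, sets LK2 and NCI-H520 to 0 by construction and is not counted here. CCL20 could be tested only without the filter and by permutation.

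Counts of called segments for LK2 and NCI-H520, of the chemokine, IL1 and IL6 lengths and of 50 kb bins, were 523, 973, 1138 and 1133. With equal numbers of top peaks they were 297, 422, 457 and 473, and without the filter the last 3 were 1564, 2258 and 2245. When 1 line or library was left out, the counts were 93 to 690, 201 to 1282, 246 to 1487 and 265 to 1466, lowest without NCI-H520, where the lone line is assumed to vary like the other sets. For HCC95, KNS62 and HCC2814 the counts, 0 in each, were 2, 25, 34 and 35 without the filter. Equal numbers of top peaks gave 3, 6 and 2 for the last 3, a pseudocount of 200 bp 4 and 4 for the last 2, and one of 5000 bp 8, 1 and 1 for the last 3; a fit of these lines alone gave 1 at the IL6 length. Leaving out a line gave 0 to 16, 0 to 71, 0 to 55 and 0 to 48, highest without LC-1/SQSF. For the same lines, the 50 kb bins from 74550001 and 74950001 on chromosome 4 ranged over -0.073 (without KNS62) to 0.55 (without HCC95) and over -1.04 (without KNS62) to 0.55 (without HCC95).

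With LK2 replicate 2 in place of LK2_GFP, the IL1 difference of LK2_DNp63 was 0.46, and the chemokine window held 3.91 scaled kb in LK2_DNp63 and was listed at 0 in LK2 replicate 2, so that neither LK2 library gave the sign found with LK2_GFP (-0.30). Equal numbers of top peaks left 20 of the 51 regions and 7 of the 18 Sox2 peaks, and 1 of the 4 regions of LK2 and NCI-H520 had a peak in both libraries of a line.

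Depth is unknown, most lines have 1 library, and leaving out LK2 or NCI-H520 leaves 1 line in its set. No paired analysis was possible between the sets, because they consist of different lines. LK2_DNp63 and LK2_GFP share a parent line but had 1 library per arm. LK2 and NCI-H520, the only lines with replicate numbers, belong to the same set and were not tested against each other.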
